A study of Mus musculus with 12 samples.

Results

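Liver RNA of mice on a high-fat diet was compared with liver RNA of mice on a normal diet. The comparison takes 8 of the series' 12 libraries, chosen by their labels: 4 from mice that ate a high-fat diet for 14 weeks (HFD) and 4 from mice that ate a normal diet for 14 weeks (Control). No drug was given to either group, and the remaining 4 libraries, from HFD mice treated with fenofibrate, enter only 1 alternative fit. The study assigned 10 mice to each group. The labels name neither strain, sex nor age, nor the fat content of the diet, and do not say whether a library is 1 mouse or a pool, or how cages, dissection and sequencing were arranged. The p-values below therefore measure the spread between these libraries, which may be technical. Every library had reads from a Y-linked gene and too few Xist reads to be tested.

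The liver takes up dietary fat, burns part of it in mitochondria and peroxisomes, stores part of it as triglyceride in lipid droplets and exports the rest in lipoproteins. The same hepatocytes break down amino acids, send their nitrogen into urea, make bile acids from cholesterol, clear foreign compounds with cytochrome P450 enzymes, and secrete most plasma proteins. Many of these genes follow the circadian clock, in which the activators BMAL1 (gene Arntl) and CLOCK drive repressors (Per, Cry, Nr1d1 and Nr1d2) and output factors such as Dbp. In rodents many also follow the pulses of growth hormone, which set male-biased and female-biased liver genes.

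Each library held between 15797016 and 17940951 counts. The test covered 13031 of 23775 listed genes, which hold 99.885% of the counts. Levels below are counts per 1000000 scaled by TMM (CPM), and lists of 4 values follow library order 1 to 4. A gene is said to have risen or fallen when edgeR's quasi-likelihood test gave an adjusted p under 0.05 (Benjamini-Hochberg, over all genes tested). Log2 fold changes are HFD over Control ± SE. Summed hepatocyte markers, in CPM of total counts, were 142550, 153930, 142340 and 152020 in Control and 134530, 126030, 123550 and 134510 in HFD (two-sided exact permutation p = 0.0286, the smallest that 4 against 4 allow, and 0.0857 adjusted over 21 such measures). With TMM-scaled CPM the exact permutation p of that sum was 0.0571. Of the 12 markers, 2 had fallen (Cyp3a11 and Cps1) and 0 had risen. Kupffer cell markers were 358 to 446 CPM in Control and 495.59 to 597 CPM in HFD libraries 2 to 4, but 233 CPM in HFD library 1. Sinusoidal endothelial markers likewise stood at 284 CPM in HFD library 1 and at 541 to 567 CPM in the other HFD libraries. Adipocyte markers summed to 385 to 1108 CPM in Control and 2236 to 3286 CPM in HFD, almost all of it Car3, a carbonic anhydrase that hepatocytes also make. Adipoq, which defines adipocytes, had 23 reads in Control library 3 and 0 in every other library. Pancreatic acinar markers summed to 6.24 to 9.92 CPM in Control and 18.2 to 31.1 in HFD (exact permutation p = 0.0286), nearly all of it Cela1, an elastase gene that rose (1.61 ± 0.17, adjusted p = 0.000134, or 0.189 with all 12 libraries in the fit). The defining markers Pnlip and Cpa1 had 0 reads in all 8 libraries. In bulk tissue, fewer cells of a type and less RNA per cell cannot be told apart.

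HFD livers had higher levels of 691 genes (5.3% of those tested) and lower levels of 702 (5.39%), together 10.7%. A change of at least 2-fold was fitted for 174 of the risen genes (1.34%) and 195 of the fallen (1.5%). The groups did not overlap in 645 of the risen and 653 of the fallen genes. Over all genes tested, passed or not, 9.02% had every HFD library above every Control library and 8.99% the reverse. Genes that passed had a median log2 change of 0.68 when they rose and -0.71 when they fell, against -0.01 over all genes. With Control library 2 and HFD library 1, which stood apart as given below, both left out, 509 genes rose and 548 fell. Of all calls, 49.6% were rises, or 62.1% when libraries were scaled by total counts alone. The count of fallen genes was 445 without HFD library 2 and 418 without HFD library 4. The first principal component held 40.9% of the variance and placed Control at -36.4 to -18.7 and HFD at 23.5 to 27.6. The second (16.8%) did not follow the diet: Control library 2 (-28.3) and HFD library 1 (-20.3) lay at one end and Control library 1 (18.6) and HFD library 3 (17.6) at the other.

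**Figure D1:**
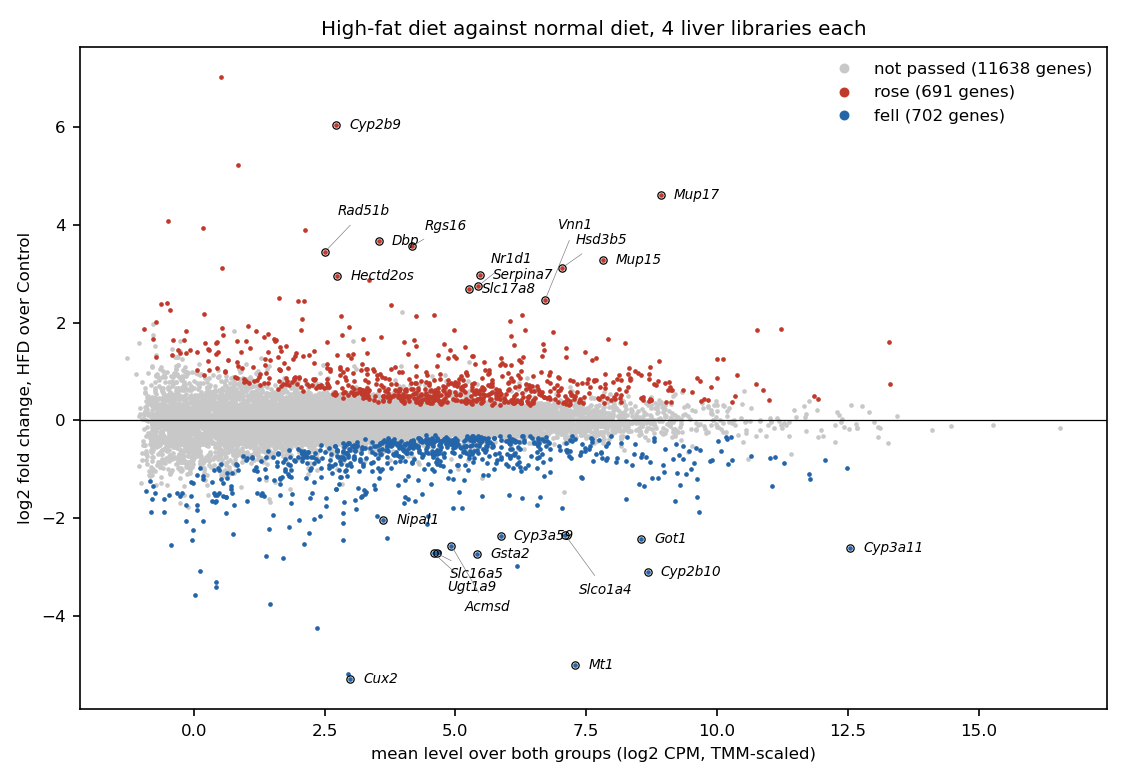
Log2 fold change (HFD over Control, vertical axis) of every gene tested against its mean level over both groups (horizontal axis, log2 CPM), with the 691 genes that rose in red, the 702 that fell in blue and the rest in grey. Circles mark the 12 rising and 12 falling genes named by size of change; Mt1 and Cux2 lie lowest and Cyp2b9 and Mup17 highest among them.

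The deepest fall among abundant genes was that of Mt1 (ENSMUSG00000031765, chromosome 8, 94179082 to 94180327), which encodes metallothionein 1, a small cysteine-rich protein that binds zinc and copper. Mt1 stood at 339, 407, 210 and 258 CPM in Control and at 8.73, 7.36, 10.7 and 10.9 CPM in HFD. All HFD libraries lay far below all Control libraries, the log2 fold change was -5.01 ± 0.23, and the adjusted p was 1.76e-07. Metallothionein genes are switched on by the zinc-sensing factor MTF1, which binds metal response elements. Of 9 genes of metallothioneins and zinc transport tested (11 on the list), 3 fell and 0 rose. The others that fell were Slc39a4, a zinc importer (38.7, 33.2, 48.8 and 40.3 CPM in Control against 16, 24.3, 22.4 and 15.9 in HFD, -1.03 ± 0.16), and Slc30a1, the zinc exporter of the plasma membrane. Slc30a1 was at 50, 35.3, 33.8 and 32.5 CPM in Control and 27.6, 23.3, 26.8 and 25.5 in HFD (-0.56 ± 0.14, adjusted p = 0.0225). That call was lost without HFD library 2 (adjusted p = 0.07) or HFD library 4 (0.0671). The importers Slc39a14 (0.34 ± 0.15) and Slc39a1 (0.28 ± 0.09) did not pass. The list's median log2 change was 0.02, near that of all genes.

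Mt1 and Slc30a1 are textbook MTF1 targets, and their promoters are shown because both fell. The sequences are RefSeq's on GRCm38.p6, from position -150 to position 29 with the start at 0, with metal response element cores (TGCGCNC or TGCACNC, on either strand) in capitals. The Mt1 window is chr8:94178939-94179118 on the plus strand and the Slc30a1 window chr1:191906631-191906810 on the plus strand.
Mt1: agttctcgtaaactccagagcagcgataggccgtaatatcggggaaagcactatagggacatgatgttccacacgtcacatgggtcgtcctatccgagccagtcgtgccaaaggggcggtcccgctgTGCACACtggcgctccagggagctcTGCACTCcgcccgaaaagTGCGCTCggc
Slc30a1: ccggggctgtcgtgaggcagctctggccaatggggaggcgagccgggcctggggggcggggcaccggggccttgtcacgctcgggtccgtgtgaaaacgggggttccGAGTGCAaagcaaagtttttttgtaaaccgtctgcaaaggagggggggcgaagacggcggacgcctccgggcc
Mt1 has matches at -23, 2 and 20 from its start, and Slc30a1 has one at -43 and one at 30, just past the bases shown. Of 32851 promoter windows from position -250 to 49, longer than the 180 bases shown, 15.4% hold TGCGCNC and 12.6% hold TGCACNC. A match alone is therefore common, and it is a match of letters, not a measured binding site. Such windows exist for 5 members of this list that did not pass, of which 1 has TGCGCNC and 2 have TGCACNC.

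Amino acid metabolism moved mostly one way. Of 105 genes tested in 5 lists covering the urea cycle, amino acid breakdown, the methionine cycle and amino acid transport, 41 fell (39%) and 1 rose, against 5.39% and 5.3% of all genes. The urea cycle, which turns ammonia into urea, had 6 of its 11 genes fallen and 0 risen; their median log2 change was -0.47. Asl, argininosuccinate lyase (ENSMUSG00000025533, chromosome 5, 130011258 to 130029247), stood at 1416, 1249, 1306 and 1107 CPM in Control and at 380, 327, 368 and 302 in HFD (-1.88 ± 0.12, adjusted p = 1.71e-06). Cps1, the mitochondrial enzyme that commits ammonia to the cycle, went from 4855, 4948, 4547 and 4530 CPM to 2545, 2215, 2202 and 1900 (-1.09 ± 0.11). In both genes every HFD library lay below every Control library, with little spread inside a group. Ass1, which acts just before Asl, fell by 1.34 ± 0.13 on the log2 scale, Arg1, the last enzyme, by 0.73 ± 0.11 and Gls2, the glutaminase that feeds ammonia in, by 0.76 ± 0.12. The ornithine exchanger Slc25a15 fell too (-0.47 ± 0.13), a call lost on leaving out Control library 1 or 3 or HFD library 2, 3 or 4 (adjusted p from 0.0548 to 0.108). Otc (0.27 ± 0.11), which joins ornithine to carbamoyl phosphate, and Nags (-0.24 ± 0.10), which makes the activator of the Cps1 enzyme, did not pass.

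Among 22 genes of transamination and sulfur amino acid breakdown, 9 fell and 0 rose, with a median of -0.32. Got1, the cytosolic aspartate aminotransferase (ENSMUSG00000025190, chromosome 19, 43499752 to 43524605), was at 681, 691, 716 and 441 CPM in Control and at 136, 137, 75.4 and 123 in HFD (-2.42 ± 0.20, adjusted p = 2.13e-05). Control library 4 was the lowest Control value and was still more than 3 times the highest HFD value. Cth, which makes cysteine from cystathionine, went from 910 to 1326 CPM in Control to 277 to 540 in HFD (-1.57 ± 0.18). The serine dehydratases Sds (-1.04 ± 0.22) and Sdsl (-1.31 ± 0.15), the alanine aminotransferase Gpt2 (-0.91 ± 0.14) and the ornithine aminotransferase Oat (-0.83 ± 0.17) fell as well. The most abundant member, Cdo1, which oxidizes cysteine, was level (-0.06 ± 0.12, not passed), and Tat, the tyrosine aminotransferase, did not pass (-0.79 ± 0.26, adjusted p = 0.0706). Without HFD library 2, in which Tat lay inside the Control range, Tat passed (-1.11, adjusted p = 0.00773).

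Of 32 genes that break down aromatic amino acids, lysine, histidine, proline and branched-chain amino acids, 10 fell and 1 rose. Acmsd, which diverts tryptophan carbon away from NAD synthesis, was at 66.9, 42, 58.8 and 40.1 CPM in Control and at 10.7, 7.64, 7.34 and 9.43 in HFD (-2.57 ± 0.19). Aass (lysine, -1.19 ± 0.11), Hal (histidine, -1.08 ± 0.20), Prodh (proline, -0.83 ± 0.12) and Hpd (tyrosine, -0.76 ± 0.09) fell. Tdo2, which opens the tryptophan ring, did not pass (-0.02 ± 0.13). The single riser was Haao, an enzyme of the tryptophan-to-NAD route (0.42 ± 0.10, adjusted p = 0.021), named here after its value was seen; the call was lost without HFD library 1, 2 or 4 (adjusted p from 0.0519 to 0.0612).

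In the methionine cycle and one-carbon metabolism, 8 of 22 genes fell and 0 rose. Mat1a, which makes S-adenosylmethionine, was among the 5 genes that lost most CPM: it was at 7290, 8511, 6695 and 7728 CPM in Control and at 4698, 3181, 3666 and 3781 in HFD (-0.98 ± 0.13). Bhmt, which remethylates homocysteine with betaine, went from 3914, 4744, 5476 and 5329 CPM to 3126, 1632, 1605 and 2065 (-1.21 ± 0.20). Nnmt, which methylates nicotinamide, showed the least spread: 193, 210, 221 and 191 CPM in Control against 57.7, 59.2, 58.1 and 59.6 in HFD (-1.80 ± 0.09, adjusted p = 3.27e-07). Ahcy (-0.88 ± 0.10), which clears S-adenosylhomocysteine, and the folate enzyme Aldh1l1 (-0.79 ± 0.13) fell. Of 18 amino acid transporters tested, 8 fell and 0 rose, or 5 and 0 without HFD library 2 or HFD library 4. The plasma membrane carriers Slc43a1 (-1.75 ± 0.36), Slc1a5 (-1.19 ± 0.18) and Slc7a2 (-0.75 ± 0.14) fell, as did the mitochondrial carriers Slc25a22 (-0.83 ± 0.15) and Slc25a47 (-0.82 ± 0.16). The glutamine transporter Slc38a3, at 1030 CPM in Control and 980 in HFD, did not pass (-0.07 ± 0.11).

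**Figure D2:**
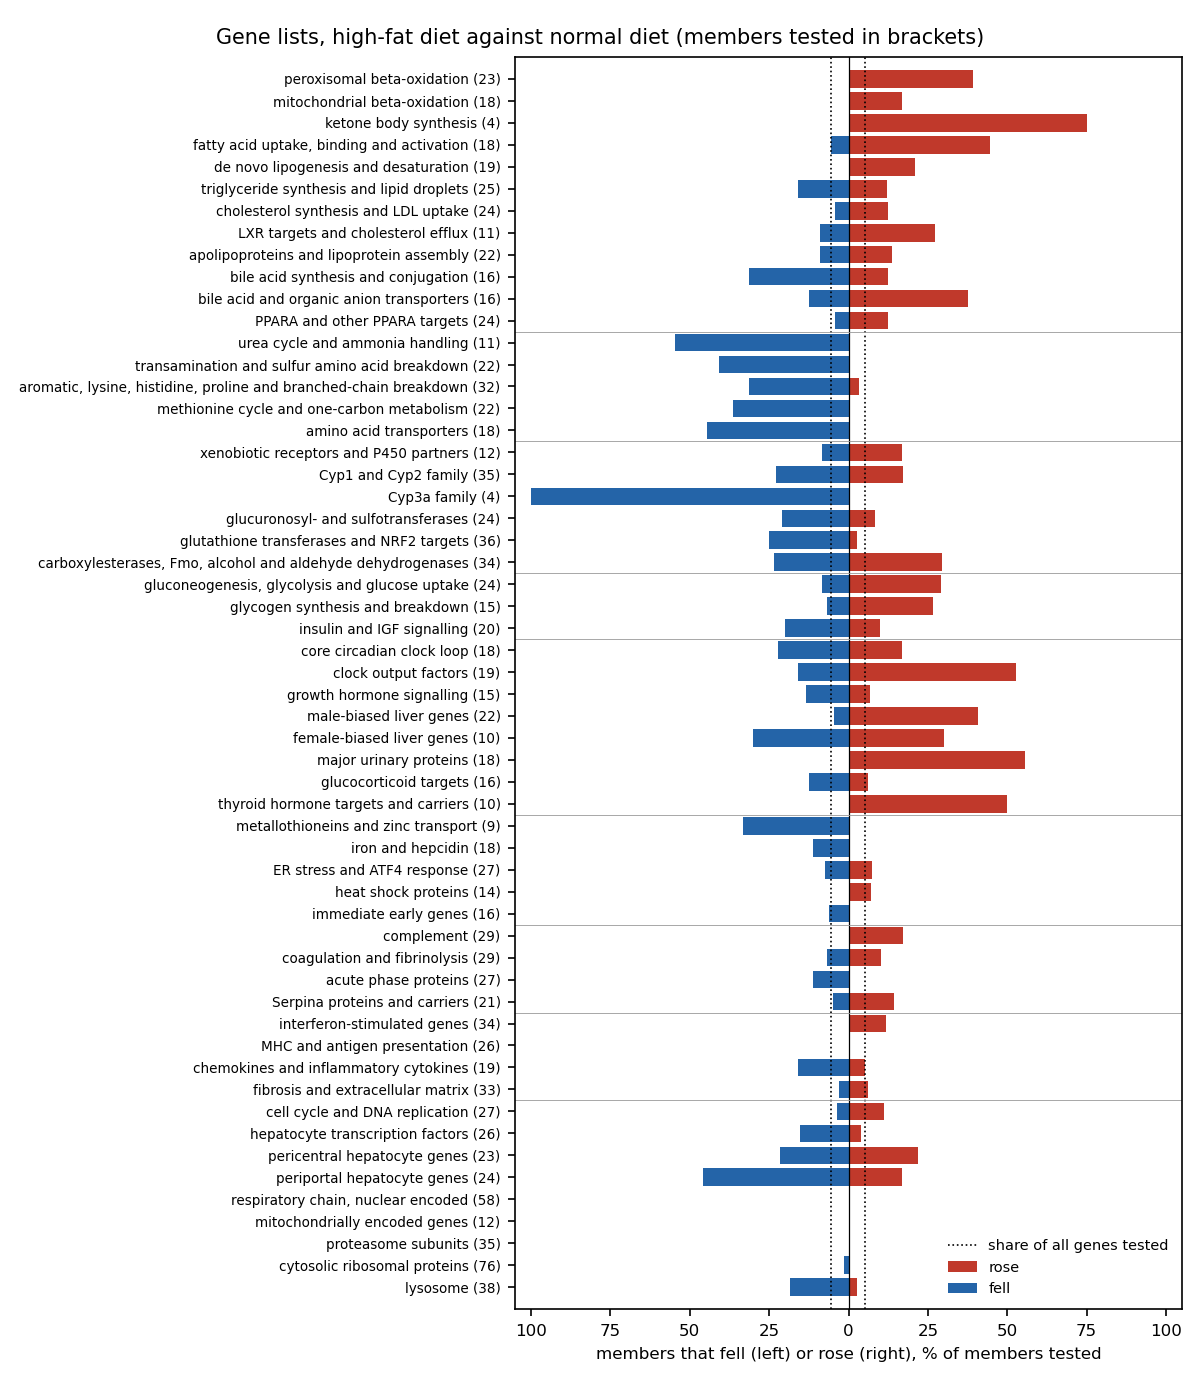
Share of each gene list's tested members that rose (right, red) or fell (left, blue) in HFD livers, with the number tested in brackets and dotted lines at the shares over all genes tested (5.3% rose, 5.39% fell). The 5 amino acid lists extend to the left, the beta-oxidation, ketone body and major urinary protein lists to the right, and the respiratory chain and proteasome lists have no bar.

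Drug metabolism was the other large block of lower genes. Over 6 lists and 145 tested genes, 35 fell (24.1%) and 21 rose (14.5%), against 5.39% and 5.3% of all genes. All 4 Cyp3a genes tested, of 9 on the list, fell. Cyp3a11 (ENSMUSG00000056035, chromosome 5, 145854426 to 145879964), the major drug-clearing P450 of mouse liver, was at 9269, 10860, 11149 and 9734 CPM in Control and at 1948, 1597, 1799 and 1391 in HFD (-2.61 ± 0.13, adjusted p = 2.65e-07). It lost more CPM than any other passing gene. Cyp3a59 fell by 2.37 ± 0.22 on the log2 scale, Cyp3a25 by 0.89 ± 0.14 and Cyp3a13 by 0.80 ± 0.10. Cyp3a11, Cyp3a25 and Cyp3a59 lie next to each other in the cluster at chromosome 5, 145854426 to 146113287, and reads can be split among such close copies.

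Por, the reductase that passes electrons to all microsomal P450s, was at 1169, 735, 901 and 750 CPM in Control and at 227, 321, 295 and 291 in HFD (-1.65 ± 0.16, adjusted p = 6.19e-05). It was the single member to fall among 12 receptors and P450 partners. Of the receptors, Nr1i3 (CAR) rose (0.37 ± 0.10, adjusted p = 0.0368), a call lost on leaving out Control library 1, 3 or 4 or HFD library 2, 3 or 4 (up to 0.112), and Nr1i2 (PXR, 0.07 ± 0.10) and Ahr (0.29 ± 0.11) did not pass. Alas2, the erythroid form of the first heme enzyme, rose (0.74 ± 0.12). Summed erythroid markers, Alas2 included, were 237 to 485 CPM in Control and 390 to 451 in HFD (exact permutation p = 0.143), and their part in that rise was not tested.

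In the Cyp1 and Cyp2 families 8 of 35 genes fell and 6 rose. Cyp2b10, the classic CAR target, varied widely inside the Control group: 930, 183, 1060 and 754 CPM, against 72.8, 72.3, 155 and 39.5 in HFD (-3.11 ± 0.50, adjusted p = 0.00208). The lowest Control library, number 2, was close to HFD library 3. Its neighbour in sequence Cyp2b9 went the other way, from 0.107, 0.0611, 0.12 and 0.475 CPM to 2.31, 7.59, 35.5 and 6.76 (6.05 ± 0.96), on 13 Control reads in all. Without HFD library 3 the Cyp2b9 change was 4.82 and without Control library 4 it was 6.97. Cyp2a5, a coumarin hydroxylase, fell (-1.18 ± 0.20) and Cyp2d40 rose (1.55 ± 0.13). The most abundant P450s, Cyp2e1 (8284 CPM in Control and 8113 in HFD) and Cyp2c29 (0.21 ± 0.14), did not pass. Without HFD library 4 the family's falls numbered 4, and without HFD library 3 its rises numbered 3.

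Conjugating enzymes followed in part. Of 36 glutathione transferases and NRF2 targets, 9 fell and 1 rose, with a median of -0.17; the rise was absent without Control library 1, 3 or 4 or HFD library 1 or 4. Gsta2 was at 71.1, 72.4, 84 and 69.8 CPM in Control and at 8.02, 11, 17.9 and 7.3 in HFD (-2.75 ± 0.23). Gsta1 (-2.06 ± 0.36) and Gsta4 (-0.96 ± 0.14) flank it on chromosome 9 (78182774 to 78355788) and fell too; Gsta1 and Gsta2 are near copies. Gstm3 (-1.97 ± 0.32) and Gstt3 (-1.13 ± 0.22) fell, while the abundant microsomal transferase Mgst1 did not pass (0.30 ± 0.16). Among 24 glucuronosyl- and sulfotransferases, 5 fell and 2 rose, or 2 and 2 without HFD library 2 and 3 falls without Control library 1. Ugt1a9 dropped from 37.8 to 48 CPM to 4.08 to 8.13 CPM (-2.72 ± 0.18), although Ugt1a genes share exons among which reads cannot be assigned. Sult1a1 fell (-0.86 ± 0.14), and Sult2a8 (0.87 ± 0.16) and Ugt3a1 (56.8 to 81.2 CPM in Control and 121 to 148 in HFD) rose.

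The esterases, flavin monooxygenases and alcohol and aldehyde dehydrogenases divided, with 10 of 34 risen and 8 fallen. Fmo2 (44.1, 61.5, 37.8 and 49 CPM in Control, 12.8, 12, 17.8 and 13 in HFD, -1.79 ± 0.16) and Fmo5 (-1.10 ± 0.26) fell. Ces1f (1.21 ± 0.14) and Ces3a (0.74 ± 0.10), carboxylesterases that handle lipid esters as well as drugs, rose. Adh4 (1.47 ± 0.17), Adh6-ps1 (1.86 ± 0.17) and Adh1 (0.42 ± 0.12) are neighbours on chromosome 3 (138260991 to 138430892) and rose together, Adh1 losing its call in 6 of the 8 fits that left out 1 library (without Control library 1 or 4 or any HFD library, adjusted p from 0.0516 to 0.101). The most abundant member, Ces1c, did not pass (0.07 ± 0.11).

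The 12 lipid lists, from fat burning to bile acids, held 218 genes tested. Rises numbered 50 (22.9%) and falls 16 (7.34%), against 5.3% and 5.39% of all genes. Fat-burning genes rose in part. In peroxisomal beta-oxidation, which shortens very long fatty acids, 9 of 23 genes rose and 0 fell, with a median of 0.39. Acaa1b, the peroxisomal thiolase, was at 850, 1164, 837 and 821 CPM in Control and at 1934, 1497, 1610 and 1934 in HFD (0.93 ± 0.14). Nudt7, which hydrolyses peroxisomal coenzyme A, went from 79.7 to 154 CPM to 227 to 356 (1.23 ± 0.20, adjusted p = 0.00239). Amacr, the racemase for branched acids, rose by 0.57 ± 0.11. Crot (0.87 ± 0.22), Abcd3 (0.63 ± 0.15) and Scp2 (0.45 ± 0.11) rose with smaller margins. Calls were lost for Crot without Control library 3 or 4 or HFD library 1 or 4 (adjusted p up to 0.064), for Abcd3 without HFD library 4 (0.0565), and for Scp2 in 6 fits, without Control library 1, 3 or 4 or HFD library 1, 2 or 4 (up to 0.0797). Without Control library 3 or 4 or HFD library 1 or 4 the list's count of risen genes was 5, 4, 4 and 3. The mitochondrial pathway had 3 of 18 genes risen, or 6 without Control library 2, and 0 fallen: Decr1 (0.66 ± 0.15), Hadh (0.59 ± 0.09) and Eci1 (0.52 ± 0.10). Acaa2, the most abundant member, was higher by 0.28 ± 0.12 without passing.

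Of the 4 genes of ketone body synthesis, 3 rose. Bdh1, which makes beta-hydroxybutyrate, was at 91.6, 146, 121 and 127 CPM in Control and at 286, 318, 272 and 295 in HFD (1.27 ± 0.13, adjusted p = 9.88e-05), with the groups far apart. Acat1 rose by 0.68 ± 0.17, a call lost on leaving out Control library 1 or 3 or HFD library 1 or 4 (adjusted p from 0.0546 to 0.068).

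Among 18 genes of fatty acid uptake, binding and activation, 8 rose and 1 fell, with 5, 4 and 3 rises without Control library 4, HFD library 1 and HFD library 4. The fall was absent without Control library 3 or 4 or HFD library 2, 3 or 4. Fabp1, the liver fatty acid-binding protein, was one of the 5 genes that gained most CPM: 602, 1492, 965 and 1046 in Control against 4288, 3088, 2997 and 4691 in HFD (1.88 ± 0.24, adjusted p = 0.000475). Fabp2, its intestinal relative, rose by 1.24 ± 0.18. Cd36, a fatty acid transporter, was steady in Control (25.5, 23.6, 24.3 and 26.1 CPM) and higher in 3 HFD libraries (63.7, 55.5 and 51.7), but HFD library 1 (22.9) lay below all Control libraries. Its change was 0.96 ± 0.23 (adjusted p = 0.0208), lost on leaving out Control library 3 or HFD library 2, 3 or 4 (0.0501 to 0.0604). Acsl1, the main hepatic acyl-CoA synthetase, did not pass (0.25 ± 0.15).

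Genes that make fat rose in part. Of 19 genes of lipogenesis and desaturation, 4 rose and 0 fell. Scd1, which puts the double bond into stearate and palmitate (ENSMUSG00000037071, chromosome 19, 44394451 to 44407709), gained more CPM than any other gene. It stood at 4898, 4942, 4856 and 5020 CPM in Control, almost without spread, and at 18628, 12913, 9265 and 18984 in HFD, where libraries 1 and 4 were about level and library 3 lowest (1.60 ± 0.19, adjusted p = 0.000305). Me1, the malic enzyme that supplies NADPH, showed the same order of HFD libraries, at 292, 265, 140 and 342 CPM against 83.3 to 112 in Control (1.40 ± 0.22). Elovl6 rose (0.74 ± 0.15), and so did Pnpla3 (1.90 ± 0.43), at 0.428 to 0.959 CPM in Control and 0.77 to 3.32 in HFD. The Pnpla3 call was lost with limma-voom (adjusted p = 0.0505) and with the replicate number as a block (0.0619). It was also lost with Control library 2 and HFD library 1 both left out (0.0556). Fasn, the fatty acid synthase, was at 118, 51.9, 94.6 and 85.4 CPM in Control and 97, 121, 116 and 114 in HFD and did not pass (0.36 ± 0.19). Srebf1, its transcription factor, missed the threshold (0.87 ± 0.26, adjusted p = 0.0518) and passed without Control library 1 (0.0172), HFD library 1 (0.0416) or HFD library 4 (0.0427).

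Triglyceride synthesis and lipid droplet genes showed no common direction, with 3 of 25 risen and 4 fallen, and 2 falls or fewer without Control library 1 or 2 or any 1 HFD library. Pnpla2, the lipase that opens stored triglyceride, was at 184, 139, 165 and 115 CPM in Control and at 67.5, 77.4, 63.1 and 82.5 in HFD (-1.05 ± 0.15, adjusted p = 0.000793). Mgll, which cuts monoglyceride, rose (0.68 ± 0.13), as did Fitm1, a protein of droplet formation (1.39 ± 0.16). Gpat4, an acyltransferase of the first step, fell by 0.53 ± 0.13, a call lost without HFD library 3 (adjusted p = 0.067) or 4 (0.0584). Plin2, the droplet coat protein, overlapped between the groups: 583, 1279, 567 and 842 CPM in Control and 1222, 842, 766 and 1195 in HFD (0.30 ± 0.24, not passed).

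In cholesterol synthesis 3 of 24 genes rose and 1 fell, so that most of the pathway was not called. Sc5d, a late enzyme, rose by 0.55 ± 0.10. Hmgcs1, the entry enzyme, was at 50.5, 58.2, 71.5 and 68.9 CPM in Control and 145, 98.4, 69.3 and 153 in HFD (0.90 ± 0.22), HFD library 3 falling inside the Control range, and its call was lost on leaving out Control library 1 or HFD library 1 or 4 (adjusted p from 0.0532 to 0.06). Without any 1 of those 3 libraries the list had 1 rise. Dhcr7, the last enzyme, fell (-0.72 ± 0.19), a call lost on leaving out Control library 1 or 3 or HFD library 1 or 3 (up to 0.0811). The sterol exporter genes Abcg5 (62.5 to 77.6 CPM against 96.7 to 120, 0.60 ± 0.11) and Abcg8 (0.64 ± 0.18) form a head-to-head pair and rose, Abcg8 losing its call in 6 fits that left out Control library 2, 3 or 4 or HFD library 2, 3 or 4 (up to 0.122). Soat2, which esterifies cholesterol, rose (0.43 ± 0.10), and Abca1 (0.20 ± 0.11) and Scarb1 (-0.28 ± 0.16) did not pass.

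Of 22 apolipoprotein and lipoprotein assembly genes, 3 rose and 2 fell, or 1 rose without Control library 3 or HFD library 1. Angptl8, an insulin- and feeding-induced inhibitor of lipoprotein lipase, was at 18.2, 16.3, 17.4 and 24.7 CPM in Control and at 88.4, 31.3, 56.7 and 39.3 in HFD (1.49 ± 0.27). Apoc2, the activator of that lipase, fell (-1.17 ± 0.21), as did Apoa5 (-0.42 ± 0.10), which lowers plasma triglyceride; the Apoa5 call was lost without HFD library 1, 3 or 4 (adjusted p from 0.0508 to 0.0715). The abundant Apoe (-0.11 ± 0.09) and Apoa1 (-0.35 ± 0.14) did not pass.

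PPARA is the nuclear receptor that switches on fat burning when fatty acids arrive in the liver. Ppara itself was at 45.7, 45.6, 24.3 and 40.4 CPM in Control and 49, 67.6, 48 and 54.9 in HFD and did not pass (0.49 ± 0.18, adjusted p = 0.109). Of 24 genes in the list of PPARA and further targets, 3 rose and 1 fell, or 6 rose without Control library 2. Vnn1, a pantetheinase, was at 26.2, 47.2, 18.6 and 37 CPM in Control and 181, 145, 140 and 242 in HFD (2.46 ± 0.26). Aldh3a2, a fatty aldehyde dehydrogenase (0.96 ± 0.15), and Pex11a, a peroxisome division factor (0.72 ± 0.14), rose, and Cyp4a32 fell (-0.78 ± 0.17). Cyp4a10 (-0.31 ± 0.24) and Cyp4a14 (-0.16 ± 0.43), fatty acid omega-hydroxylases and strong PPARA targets, and Cpt1a, the mitochondrial gatekeeper (-0.27 ± 0.11), did not pass.

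Several of these genes varied more inside the groups than between them. Pdk4, a fasting-induced kinase that spares glucose, was at 28.1, 104, 33.3 and 26.7 CPM in Control and at 50.3, 10.3, 6.22 and 43 in HFD (-0.81 ± 0.60, not passed). Cyp4a14 was at 1878, 5145, 991 and 2236 CPM in Control and at 3126, 1014, 2155 and 2906 in HFD. Fgf21, a fasting hormone, was at 2.36, 13.7, 1.8 and 4.63 CPM and at 19.2, 6.91, 5.74 and 14.8 (1.06 ± 0.55). In all 3 genes Control library 2 was the highest of its group, and HFD libraries 1 and 4 were the highest of theirs. G0s2, an inhibitor of the lipase made by Pnpla2, had that order too, at 145, 457, 175 and 166 CPM and 652, 240, 258 and 537 (0.84 ± 0.39). Without Control library 2, Fgf21 (1.99, adjusted p = 0.0161) and G0s2 (1.38, adjusted p = 0.0168) passed.

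**Figure D3:**
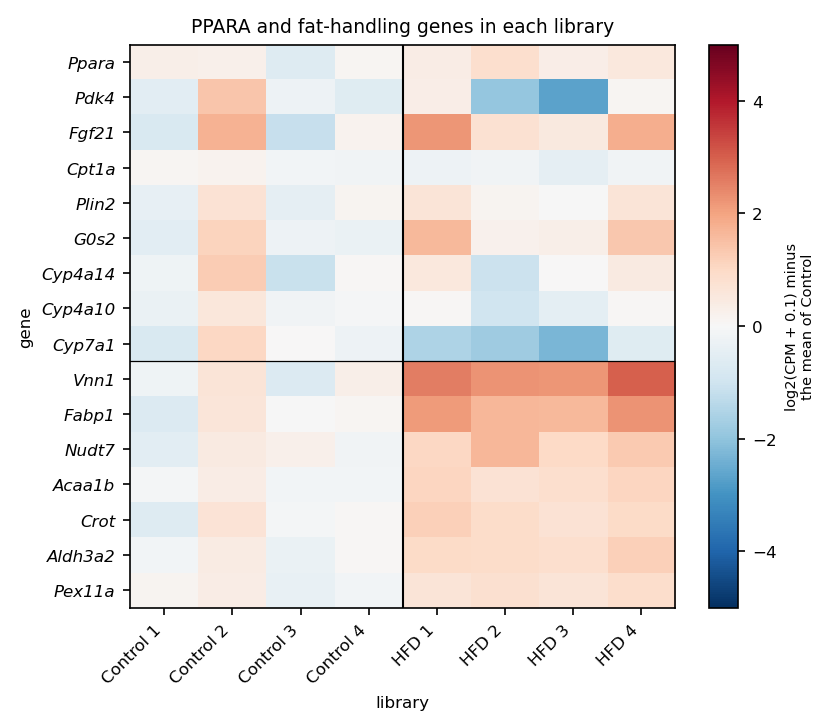
PPARA and fat-handling genes in each library, as log2(CPM + 0.1) minus the mean of the Control libraries, with Control to the left of the vertical line. The upper 9 genes did not separate as a set. Control library 2 was the highest Control library in Pdk4, Fgf21, Plin2, G0s2, Cyp4a14 and Cyp7a1. Ppara, also among the upper 9, was higher in every HFD library than in every Control library, without passing. The lower 7 are higher in all HFD libraries.

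Bile acid synthesis from cholesterol had more falls than rises, 5 against 2 of 16 genes (3 falls without HFD library 2 or 3). Cyp8b1, the 12-alpha-hydroxylase that makes cholic acid (ENSMUSG00000050445, chromosome 9, 121914356 to 121916305), was at 911, 1274, 671 and 738 CPM in Control and at 427, 293, 292 and 430 in HFD (-1.32 ± 0.20, adjusted p = 0.00173). Cyp39a1, an oxysterol 7-alpha-hydroxylase, went from 76.1 to 119 CPM to 26.1 to 37 CPM (-1.54 ± 0.15), and Cyp27a1, which opens the alternative route, from 833 to 920 to 534 to 575 (-0.64 ± 0.09). These hydroxylases were lower in every HFD library than in every Control library. Cyp7a1, the rate-limiting enzyme, was at 60.5, 211, 104 and 86.2 CPM in Control and 35.2, 29.8, 20.9 and 68.3 in HFD (-1.58 ± 0.39), with HFD library 4 above Control library 1, and its call was lost without HFD library 1, 2 or 3 (adjusted p from 0.0533 to 0.0642). Nr0b2 (SHP), a repressor of Cyp7a1 that FXR induces, rose from 29.5 to 41 CPM to 46.1 to 134 CPM (1.27 ± 0.25). Akr1c6, a hydroxysteroid dehydrogenase of this list, rose from 382, 680, 665 and 699 CPM to 1598, 1520, 1264 and 1396 (1.25 ± 0.17).

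Of 16 bile acid and organic anion transporters, 6 rose and 2 fell. Slco1b2, the main hepatic uptake carrier for organic anions, was at 507, 680, 667 and 767 CPM in Control and at 1746, 1623, 1501 and 1360 in HFD (1.25 ± 0.13). Slco1a1 (1.02 ± 0.14), Slc22a7 (1.57 ± 0.21) and Slc10a2 (0.87 ± 0.20) rose, and so did Slc10a1 (NTCP, 0.44 ± 0.11), whose call was lost without HFD library 1 (adjusted p = 0.0579) or 4 (0.0635). Slco1a4 went the other way, from 171, 288, 237 and 224 CPM to 59.8, 32, 45.2 and 42.5 (-2.36 ± 0.19, adjusted p = 1.87e-05). The canalicular pump Abcc2 did not pass (0.15 ± 0.10). Without Control library 2, 4 of these transporters fell.

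The 3 glucose lists, of 59 genes tested, had 13 rises (22%) and 7 falls (11.9%), against 5.3% and 5.39% of all genes. In gluconeogenesis, glycolysis and glucose uptake, 7 of 24 genes rose and 2 fell. The falls numbered 1 without Control library 1 or 3 or HFD library 1, 3 or 4. Pklr, the liver pyruvate kinase, rose from 45.9 to 67 CPM to 115 to 181 CPM (1.32 ± 0.15), Khk, the fructokinase, by 0.76 ± 0.12 and Slc2a2, the liver glucose transporter, by 0.84 ± 0.12. Slc2a1 fell (-0.69 ± 0.11). The gluconeogenic genes Pck1 (3825, 3305, 4146 and 2181 CPM against 2023, 3152, 1155 and 2064, -0.68 ± 0.26) and G6pc (-0.64 ± 0.28) did not pass. Pck1 passed without HFD library 2 (-0.94, adjusted p = 0.036) and G6pc without Control library 4 (-0.85, adjusted p = 0.0453).

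Of 15 genes of glycogen turnover, 4 rose and 1 fell, or 0 fell without HFD library 1 or 2. Ugp2, which makes UDP-glucose, was at 210, 260, 238 and 269 CPM in Control and 499, 522, 456 and 433 in HFD (0.97 ± 0.11). Pygl, the liver phosphorylase (0.43 ± 0.09), and Gbe1, the branching enzyme (0.40 ± 0.09), rose by less. In insulin and IGF signalling 4 of 20 genes fell and 2 rose. Irs2, an insulin receptor substrate that fasting raises, fell from 50.4, 65.9, 40.3 and 39.7 CPM to 26.9, 12.7, 12.8 and 19 (-1.46 ± 0.24), and Igfbp2, an IGF carrier, from 1095, 1119, 1327 and 809 CPM to 547, 396, 427 and 521 (-1.20 ± 0.16). Inhbe, a hepatokine subunit (1.13 ± 0.14), and Pik3r1, the regulatory subunit of PI3-kinase (0.98 ± 0.15), rose. Igf1 did not pass (-0.31 ± 0.10, adjusted p = 0.0698), and passed without Control library 1 (0.0432).

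**Figure D4:**
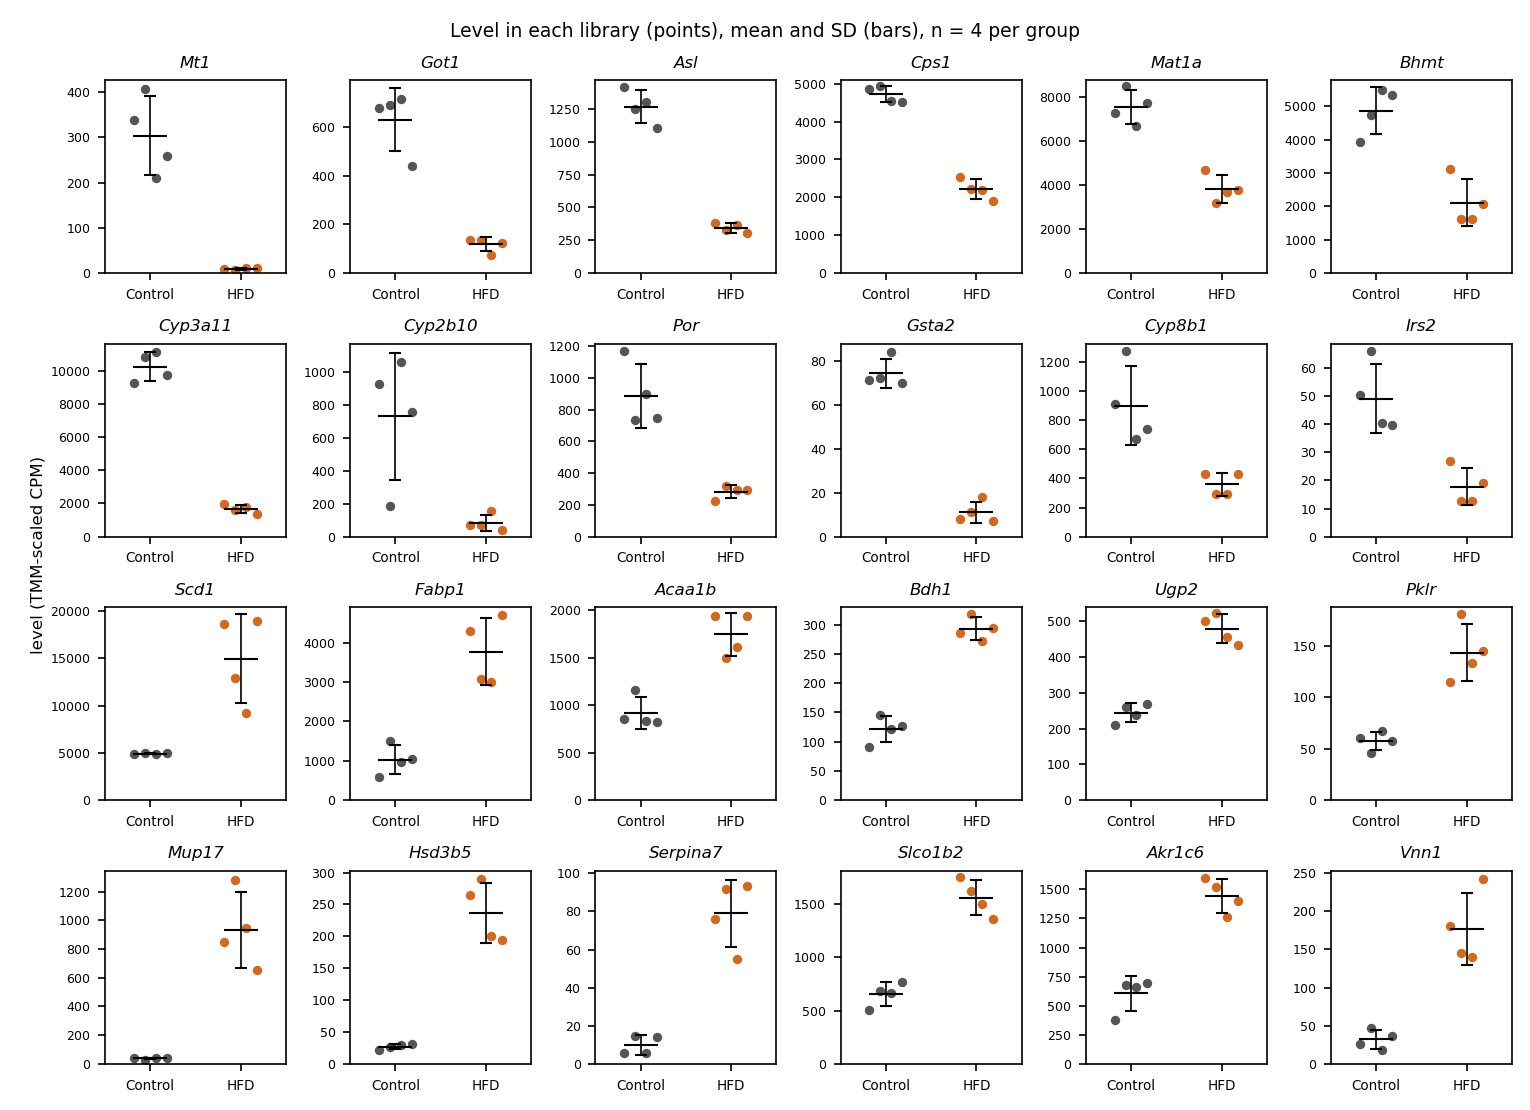
Level (CPM, vertical axes from 0) of 24 named genes in each of the 4 Control (grey) and 4 HFD (orange) libraries, with mean and SD. In all 24 the groups do not overlap; Cyp2b10 in Control, and Scd1 in HFD, spread widely.

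The 8 clock and hormone lists, of 112 genes tested, had 36 rises (32.1%) and 14 falls (12.5%), against 5.3% and 5.39% of all genes. The circadian loop was split between its arms. Of 18 core genes, 3 rose and 4 fell, or 6 rose without HFD library 1. The activator Arntl was at 28, 36.2, 26.3 and 31 CPM in Control and at 17.5, 7.3, 7.11 and 10.9 in HFD (-1.51 ± 0.24, adjusted p = 0.00202), and Cry1, a late repressor, at 26.8, 19.7, 18.2 and 21.5 against 13.7, 7.08, 6.16 and 7.42 (-1.33 ± 0.22). Npas2, an alternative partner of BMAL1, fell by 1.51 ± 0.39 on the log2 scale. The repressor Nr1d1 (ENSMUSG00000020889, chromosome 11, 98767932 to 98775333) went from 14.7, 13.3, 7.07 and 9.5 CPM to 67.4, 89.5, 73.1 and 70.1 (2.75 ± 0.20, adjusted p = 6.23e-06), and its twin Nr1d2 from 20.6 to 24.7 CPM to 51 to 68.3 (1.32 ± 0.11). Clock did not pass (0.05 ± 0.14), nor did Per1 (0.18 ± 0.52) or Per2 (0.86 ± 0.28, adjusted p = 0.0723), which passed without HFD library 1 (0.0443) or 4 (0.0442), with DESeq2 (0.0284) and with all 12 libraries (0.0377). Per3 (1.32 ± 0.37, adjusted p = 0.0424) passed narrowly. Per3, and Hlf, Tef and Nfil3 among the output genes, were named after their values were seen. HFD library 1 was the least changed of its group in Arntl, Cry1 and Npas2. Calls were lost for Npas2 without Control library 1 or HFD library 2, 3 or 4 (up to 0.0821) and for Per3 without Control library 1, 2 or 4 or HFD library 2 or 3 (up to 0.117).

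Of 19 clock output genes, 10 rose and 3 fell, with a median of 0.64 (6 rises without Control library 4; 0 falls without Control library 1 or HFD library 4, and 1 without Control library 2 or 3 or HFD library 2 or 3). Dbp (ENSMUSG00000059824, chromosome 7, 45705088 to 45710203), a factor that binds D-boxes, was at 2.09, 1.28, 2.04 and 1.31 CPM in Control and 7.25, 35, 27.7 and 16.4 in HFD (3.68 ± 0.43). Rgs16, a brake on G-protein signalling, was at 2.3, 1.53, 2.28 and 5.1 CPM and at 15.3, 73.9, 21.8 and 21.7 (3.57 ± 0.52, or 2.81 without HFD library 2). In both genes HFD library 1 was the lowest of its group and HFD library 2 the highest. Hlf (0.56 ± 0.12) and Tef (0.76 ± 0.22), relatives of Dbp, rose, and Nfil3, which competes with them at D-boxes, fell (-0.70 ± 0.17). The Tef call was lost on leaving out Control library 2, 3 or 4 or HFD library 2 or 3 (up to 0.132) and that of Nfil3 without Control library 1 or 2 or HFD library 2, 3 or 4 (up to 0.0731). Leap2, a ghrelin-receptor antagonist secreted by the liver, rose (0.83 ± 0.14). Elovl3, a rhythmic elongase, ranged from 167 to 744 CPM inside HFD and did not pass (-0.05 ± 0.32). The time of day of tissue collection is not in the labels.

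**Figure D5:**
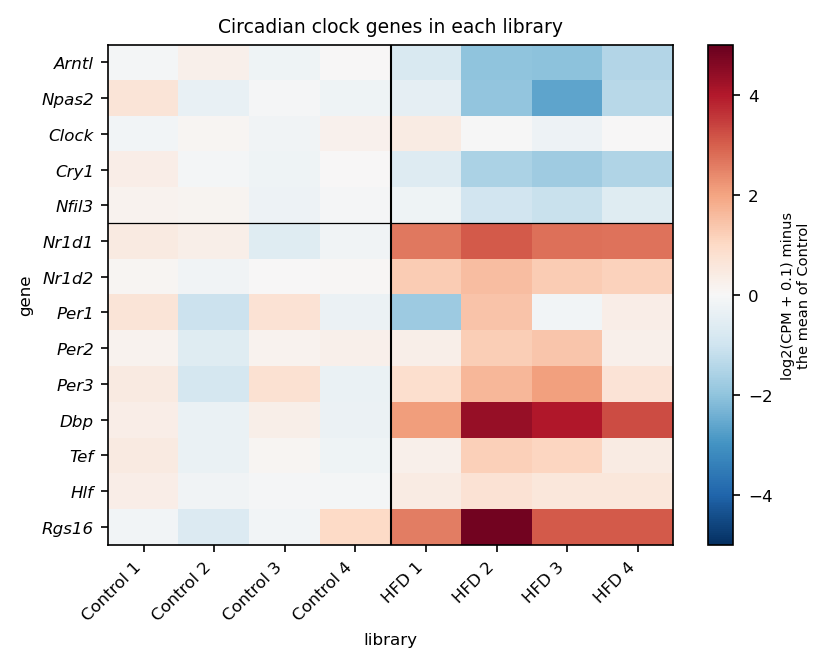
Clock genes in each library, as log2(CPM + 0.1) minus the mean of the Control libraries, with Control to the left of the vertical line. The upper 5 genes hold those that fell (Clock did not pass) and the lower 9 hold Nr1d1, Nr1d2, Dbp and Rgs16, higher in every HFD library; Per1 and Per2 did not pass, and HFD library 1 is the least changed of its group in Arntl, Cry1, Npas2, Dbp and Rgs16.

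The promoters of 3 clock genes are shown with letter matches to elements of these factors. The sequences are RefSeq's on GRCm38.p6, 5′ to 3′ on the gene's strand. Nr1d2 (chr14:18239077-18239256) and Nfil3 (chr13:52981010-52981189) run from position -150 to position 29, with the core AGGTCA of ROR elements, bound by RORs and the Nr1d1 and Nr1d2 proteins, in capitals (searched as NNAGGTCA on both strands). Per3 (chr4:151044666-151044915) holds the 250 bases before the start, with D-boxes (TTATGNAA) in capitals. All 3 lie on the minus strand.
Nr1d2: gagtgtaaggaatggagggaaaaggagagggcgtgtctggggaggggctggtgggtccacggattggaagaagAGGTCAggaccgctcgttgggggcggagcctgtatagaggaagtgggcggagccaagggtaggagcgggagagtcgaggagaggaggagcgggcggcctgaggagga
Nfil3: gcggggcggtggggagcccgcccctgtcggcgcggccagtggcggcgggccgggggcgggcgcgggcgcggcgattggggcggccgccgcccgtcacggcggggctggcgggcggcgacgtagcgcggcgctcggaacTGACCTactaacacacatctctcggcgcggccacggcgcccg
Per3: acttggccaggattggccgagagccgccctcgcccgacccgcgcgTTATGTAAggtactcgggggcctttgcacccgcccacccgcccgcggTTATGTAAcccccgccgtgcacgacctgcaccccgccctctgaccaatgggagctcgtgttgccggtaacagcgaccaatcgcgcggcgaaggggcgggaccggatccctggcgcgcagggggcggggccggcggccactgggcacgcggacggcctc
The AGGTCA core starts at -77 in Nr1d2, which rose, and on the other strand at -12 in Nfil3, which fell, so the same letters stand before genes that moved in opposite directions. The Per3 D-boxes start at -205 and -158. Of the same 32851 windows, 16.2% hold NNAGGTCA and 3.38% hold the D-box. These too are matches of letters, not measured binding sites.

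Sex-biased genes moved in both directions. The male-biased list had 9 of 22 genes risen and 1 fallen. The female-biased list, with 10 of 21 genes tested, had 3 in each direction. All 9 male-biased risers are also counted on other lists, so this count is not separate from theirs. They are members of the Mup family, Hsd3b5 (clock output), Nudt7 (peroxisomal beta-oxidation), Slco1a1 (anion transporters) and Serpina12 (serpins). Hsd3b5, a male-specific steroid enzyme (ENSMUSG00000038092, chromosome 3, 98618634 to 98630252), was at 21.5, 26.8, 29.3 and 30.7 CPM in Control and 264, 289, 201 and 194 in HFD (3.13 ± 0.16, adjusted p = 3.4e-07). Its neighbours Hsd3b2 (1.32 ± 0.24) and Hsd3b3 (1.44 ± 0.21) rose with it, in a run from 98618634 to 98763127 on chromosome 3. Serpina12, a male-biased secreted serpin, rose (1.85 ± 0.19), while Selenbp2 fell (-1.73 ± 0.39). Cux2, a female-biased homeobox factor that represses male genes (ENSMUSG00000042589, chromosome 5, 121856366 to 122050102), went from 19.8, 20, 10.7 and 11.7 CPM to 0.193, 0.34, 0.651 and 0.356 (-5.30 ± 0.33, adjusted p = 1.98e-06), on 1072 Control and 26 HFD reads. Against it, Cyp2b9, Slc22a27 (2.19 ± 0.44) and Rtn4 (0.86 ± 0.18), all on the female list, rose. Slc22a27 lies in a run of 4 organic ion transporter genes on chromosome 19 (7864388 to 8405111) that rose together, with Slc22a28 (1.36 ± 0.17), Slc22a29 (1.87 ± 0.39, 15 Control and 55 HFD reads) and Slc22a30 (0.77 ± 0.12).

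Among 15 genes of growth hormone signalling, 1 rose (2 without Control library 4 or HFD library 3) and 2 fell. The receptor Ghr was at 298, 324, 356 and 342 CPM in Control and 559, 600, 536 and 518 in HFD (0.74 ± 0.10). Socs2, a feedback inhibitor that STAT5 induces, was at 59.2, 71.3, 45 and 42.4 CPM and at 8.47, 24.1, 7.64 and 21.9 (-1.81 ± 0.33), with HFD libraries 2 and 4 higher than 1 and 3. Cux2 was the other member to fall.

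The major urinary proteins, pheromone carriers secreted by the male liver, took 1.51% to 2.02% of all counts in Control and 2.60% to 3.24% in HFD (exact permutation p = 0.0286, 0.0857 adjusted). Of 18 genes tested, 10 rose and 0 fell, with a median of 0.78. Mup17 (ENSMUSG00000096688, chromosome 4, 61591929 to 61595871) was at 38.5, 30.6, 39.7 and 42.7 CPM in Control and at 848, 1281, 947 and 654 in HFD (4.62 ± 0.21), and Mup15 at 44.6, 20.4, 45.4 and 57 against 465, 491, 365 and 309 (3.28 ± 0.27). Both stood far apart from Control. The abundant Mup3, among the 5 genes with the largest gain in CPM, went from 6331, 7938, 8019 and 8020 to 15890, 10993, 11574 and 12490 (0.75 ± 0.13), while Mup7 (0.31 ± 0.15) and Mup20 (0.39 ± 0.16) did not pass. Mup15 to Mup19 with their pseudogenes form a run of 8 risen genes on chromosome 4 (61435790 to 61782269). Mup genes are near-identical, so the division of reads among them is uncertain. The total over the family does not depend on that division. It was not checked for reads that match several copies and may have gone uncounted.

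Thyroid hormone targets and carriers had 5 of 10 tested genes risen and 0 fallen, with a median of 0.42. Serpina7, the thyroxine-binding globulin, was at 5.73, 14.8, 5.52 and 14.3 CPM in Control and 76.1, 91.6, 55.1 and 93.1 in HFD (2.97 ± 0.31, adjusted p = 9.88e-05). Dio1, which activates thyroxine, went from 55.8 to 102 CPM to 161 to 217, Gpd2, a mitochondrial shuttle enzyme, from 15.2 to 21 to 34.2 to 54.8 (1.28 ± 0.15), and the receptor Thrb from 17.9 to 22.8 to 26.7 to 32.2 (0.54 ± 0.11). Me1, given above, is the fifth riser. Ttr, the abundant thyroxine carrier, was at 6288 CPM in Control and 7735 in HFD, a gain that did not pass (0.30 ± 0.12, adjusted p = 0.143). Of 16 glucocorticoid targets 1 rose and 2 fell (4 fell without HFD library 2): the receptor Nr3c1 rose (0.54 ± 0.10), and Mt1 and the cell cycle inhibitor Cdkn1a (31, 17.9, 30.3 and 19.7 CPM against 6.48, 12.1, 2.96 and 11.8, -1.57 ± 0.34) fell.

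Further large changes were those of single genes and of runs of neighbouring genes. Slc17a8, a vesicular glutamate transporter, rose from 6.59, 14.2, 6.77 and 13.4 CPM to 70.7, 56.6, 57.8 and 79 (2.69 ± 0.24). Hectd2os, the transcript opposite Hectd2, rose (2.96 ± 0.21), although reads of the 2 strands can be told apart only with stranded counting, which the sources used here do not give. Rad51b, a recombination factor on the cell cycle list, went from 0.214, 2.38, 0.36 and 0.89 CPM to 10.6, 7.19, 9.06 and 14.7 (3.45 ± 0.47, or 4.41 without Control library 2). Slc16a5, a monocarboxylate transporter relative, fell from 50, 56, 37.4 and 30.3 CPM to 6.16, 6.17, 5.09 and 8.84 (-2.72 ± 0.21), and Nipal1, a magnesium transporter-like gene, from 15.4 to 24.4 CPM to 1.01 to 8.9 (-2.04 ± 0.39). The 4 Akr1c-cluster genes on chromosome 13 (4268176 to 4609174) rose together: Akr1c6, Akr1c20 (1.19 ± 0.16), Akr1e1 (0.76 ± 0.14) and Akr1c12 (0.41 ± 0.12), the last losing its call in each of the 8 fits without 1 library (adjusted p from 0.0515 to 0.123). Zinc finger genes formed a risen run on chromosome 4 (Zfp979, Zfp982 and Zfp984, log2 changes 2.41, 1.08 and 0.72) and a fallen run on chromosome 6 (Zfp746, Zfp777 and Zfp956, -0.90, -0.70 and -0.75). The calls of Zfp982, Zfp984 and Zfp956 were lost in 6, 7 and 6 of those 8 fits.

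Stress and iron genes, with the zinc genes above, made up 5 lists of 83 genes tested. Of these, 3 rose (3.61%) and 8 fell (9.64%), against 5.3% and 5.39% of all genes. Of 18 iron genes 2 fell and 0 rose, with a median of -0.20 and 7 lower and 2 higher at an unadjusted p under 0.05. The falls numbered 1 without Control library 1 or 3 or HFD library 1, 3 or 4, and 1 gene rose without Control library 3 or HFD library 1. Hamp, which encodes the iron hormone hepcidin, was at 887, 1017, 1056 and 914 CPM in Control and 523, 556, 551 and 299 in HFD (-1.01 ± 0.17). Of 27 genes of the endoplasmic reticulum stress and ATF4 response, 2 rose and 2 fell, with 1 rise without Control library 1 or 3 and 1 fall without Control library 2 or HFD library 2, 3 or 4. Asns, the asparagine synthetase that ATF4 drives, fell from 1.65 to 4.39 CPM to 0.415 to 0.834 (-2.33 ± 0.37), while Chac1, also an ATF4 target, rose from 0.643 to 1.4 CPM to 1.73 to 4.64 (1.62 ± 0.34). Herpud1 rose (1.07 ± 0.27), a call lost on leaving out Control library 1 (adjusted p = 0.0628) or 3 (0.0665). Of 14 heat shock proteins 1 rose and 0 fell; the rises were 4 without Control library 4 and 0 without Control library 1 or 3 or any HFD library, and 1 fell without Control library 2 or HFD library 2. Of 16 immediate early genes 1 fell and 0 rose, with a median of -0.42 and 7 lower and 2 higher at an unadjusted p under 0.05. There were 0 falls without HFD library 2 and 2 without Control library 2 or HFD library 1 or 4, and 1 rise without HFD library 3.

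Secreted plasma proteins gave 11 rises (10.7%) and 6 falls (5.83%) among 103 genes, against 5.3% and 5.39% of all genes. Alb, albumin, the most abundant gene, was at 94136, 110700, 93702 and 107740 CPM in Control and 102150, 85755, 82484 and 94836 in HFD and did not pass (-0.15 ± 0.11). Of 29 complement genes 5 rose and 0 fell, led by Mbl1, a mannose-binding lectin (0.75 ± 0.14), and C4bp (0.62 ± 0.14); without Control library 1 or HFD library 1 or 2 the count of risen genes was 3. C3, the central component, did not pass (-0.44 ± 0.15, adjusted p = 0.0824), and passed without HFD library 3 (0.0419) and with DESeq2 (0.0469). A complement gene fell without Control library 1, and 2 fell without HFD library 3. Of 29 coagulation genes 3 rose and 2 fell (1 fell without Control library 3 or HFD library 3 or 4), with the fibrinogen gene Fgb at 0.18 ± 0.12. Acute phase proteins had 3 of 27 fallen and 0 risen, or 1 fallen without HFD library 2 or HFD library 4; 1 rose without Control library 1, 2 or 3 or HFD library 1. The acute phase glycoproteins Orm3 (2.75 to 13.4 CPM against 1.78 to 3.61, -1.49 ± 0.43) and Orm2 (10.3 to 29.4 against 5.21 to 8.47, -1.32 ± 0.32) and the fetuin Fetub (-0.49 ± 0.09) fell. Control library 3 was the highest in both Orm genes. The Orm3 call was lost on leaving out Control library 1 or 3 or HFD library 1, 2 or 4 (up to 0.127) and that of Orm2 on leaving out HFD library 1, 2 or 4 (up to 0.0664). Among serpins and carriers, Serpina6, the corticosteroid-binding globulin, rose (0.83 ± 0.15), Serpina1e fell from 5014 to 6063 CPM to 2894 to 3299 (-0.82 ± 0.10, adjusted p 0.0591 with all 12 libraries in the fit), and Serpina3k, one of the genes with the largest loss in CPM, did not pass (-0.46 ± 0.16, adjusted p = 0.0868) and passed without HFD library 1 (0.0326).

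Immune and matrix lists gave 7 rises (6.31%) and 4 falls (3.6%) among 111 genes, against 5.3% and 5.39% of all genes. Of 34 interferon-stimulated genes 4 rose and 0 fell, with a median of 0.35 and 32 of 34 log2 changes above 0. Iigp1, an interferon-induced GTPase, was at 148, 180, 322 and 204 CPM in Control and 426, 468, 403 and 352 in HFD (0.95 ± 0.20), and Ifi27 at 45 to 72.3 and 86.3 to 101 CPM (0.71 ± 0.14). Control library 3 was the highest Control value in both, and without it 13 of the 34 rose. None of 26 genes of MHC and antigen presentation passed in edgeR's test or with DESeq2, and at an unadjusted p under 0.05 there were 1 higher and 3 lower. Without Control library 3, 2 of them rose. Of 19 chemokines and cytokines 3 fell and 1 rose (1 fell without Control library 3 or HFD library 2 or 4; 2 rose without Control library 3); Mif fell (-0.64 ± 0.13), and Cxcl1 rose from 1.34 to 2.94 CPM to 3.38 to 9.82 (1.38 ± 0.37), a call lost on leaving out Control library 1 or 2 or HFD library 1 or 3 (up to 0.0858). Of 33 fibrosis and matrix genes 2 rose and 1 fell (2 without HFD library 2): Col5a3 (0.79 ± 0.13), Col15a1 (0.89 ± 0.20) and the inhibitor Timp2 (-0.61 ± 0.13). None of 10 Kupffer cell, 12 sinusoidal endothelial or 12 stellate cell markers tested passed in edgeR's test, with 0, 1 and 1 higher and 1, 3 and 0 lower at an unadjusted p under 0.05. Of 10 B and plasma cell markers 1 rose and 1 fell: Ighm, an immunoglobulin heavy chain gene, rose (6.16 to 15.2 CPM against 17.9 to 37.6, 1.52 ± 0.27), and Igha, another, fell (2.2 to 6.95 CPM against 1.07 to 2.67, -1.30 ± 0.37), with overlapping groups. The Igha call was lost on leaving out Control library 2 or 3 or HFD library 1, 2 or 3 (up to 0.118). Summed B and plasma cell markers were 26 to 56.1 CPM in Control and 48.3 to 61.9 in HFD (exact permutation p = 0.0857).

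Genes of the 2 ends of the liver lobule differed in count. Of 24 periportal genes, expressed where blood enters, 11 fell and 4 rose, with a median of -0.52. Of 23 pericentral genes 5 fell and 5 rose, with a median of -0.03. Over all genes tested, 5.39% fell and 5.3% rose, and both lists exceeded those shares in each direction. Most of the periportal falls, those of Asl, Ass1, Cps1, Arg1, Gls2, Hal and Sds among them, are also counted on the amino acid lists. Some others are on the drug metabolism lists, so the periportal list is not separate from either count. The pericentral falls, those of Cyp2a5, Oat and Cyp27a1 among them, are likewise counted on drug metabolism, amino acid or bile acid lists. Etnppl, a periportal lyase of phosphoethanolamine on no amino acid list, fell from 418, 619, 435 and 384 CPM to 204, 141, 153 and 107 (-1.62 ± 0.20). Lgr5, a pericentral receptor, rose (1.18 ± 0.22), as did Lect2 (0.80 ± 0.17). Pericentral falls were 3 without Control library 3 or HFD library 4, and periportal rises 2 without Control library 1 or 4 or HFD library 1. The difference between the lists was not tested. Among 26 hepatocyte transcription factors 4 fell and 1 rose. Leaving out HFD library 2 left 1 fall and leaving out HFD library 4 left 2, and the rise was absent without Control library 1 or 3 or HFD library 2, 3 or 4. Hnf4a did not pass (-0.05 ± 0.13).

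Genes of basic cell machinery gave few calls outside the lysosome. None of 58 nuclear-encoded respiratory chain genes, 12 mitochondrially encoded genes or 35 proteasome subunits passed in edgeR's test. At an unadjusted p under 0.05 the counts higher and lower were 1 and 7, 0 and 0, and 1 and 1, and DESeq2 called 4 lower, 0 and 0. Without Control library 1 a respiratory chain gene fell, and without Control library 3 a proteasome gene rose. Of 76 cytosolic ribosomal protein genes 1 fell (3 without Control library 1; 0 without Control library 2 or 3 or HFD library 1, 2 or 3), although 69 had log2 changes below 0, with a median of -0.17. Mitochondrially encoded genes took 9.02% to 10.1% of counts in Control, 10.6% in HFD library 1 and 8.78% to 8.87% in the other HFD libraries. Of 38 lysosomal genes 7 fell and 1 rose, or 3 fell without HFD library 1 or 2: Ctsl, an abundant protease, went from 821 to 1197 CPM to 461 to 646 (-0.86 ± 0.14), Gusb fell (-0.69 ± 0.12), and Ctsc rose (0.59 ± 0.10).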

How the data were processed

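Liver RNA-seq of 4 HFD and 4 Control libraries was used. The deposited values are raw counts of reads per Ensembl gene, per the file headers. The submitters' processing notes name HTSeq 0.6.0, HISAT2 2.0.5 and StringTie 1.3.2d. For the strand setting and the annotation release, the sources used here give nothing. The labels list mm8 and mm9, but 92.3% of 23729 identifiers have their GRCm38 position (GENCODE M21), and the coordinates printed are those of the deposited table or of GRCm38. The authors' fold changes and p-values were not used.

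Counts were fitted with edgeR 4.0.16 (filterByExpr, TMM, glmQLFit, glmQLFTest; 1 coefficient per group; prior count 0.125 for log2 fold changes; R 4.3.3). SE was taken as |log2 change| over the root of F. The common biological coefficient of variation was 0.156. On simulated counts of this design (12878 genes), 32.8%, 76.1% and 90.9% of genes changed 1.5-, 2- and 4-fold were recovered. False calls made up 4.32% of all calls there. The simulation changed 67, 67 and 66 genes, fewer than were called in the data, and drew each gene independently. Libraries of a group varied together over many genes in the data, so these rates need not hold for them. Marker sums, in CPM of total counts, were set against each other in exact permutation tests (two-sided). Replicates differed by more than counting noise (chi-square per gene of 15.1 or more), and none was counted as a copy of another; this does not show that they are separate animals. Replicate numbers were not taken as pairs, since same-numbered libraries had correlated deviations of -0.181 to 0.051.

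Genes named are the 12 rising and 12 falling with the largest change (mean of at least 10 CPM in the higher group, no overlap, named symbol), the 5 gaining and 5 losing most CPM, up to 5 passing and 3 abundant members of each list described (any member of lists of up to 12), a fixed panel of 33, and members of runs of at least 3 adjacent genes of a family; others are said to be chosen after their values were seen. The comparison, the 56 gene lists and the 18 marker lists were chosen with earlier results of these data known. A list is described by its counts and median, without a set test. Alternatives were DESeq2 1.42.0, limma-voom (limma 3.58.1), other scalings and low-count filters, a fit omitting the 20 most abundant genes, all 12 libraries, the replicate number as a block, a threshold of 0.01, and each library left out. Some genes are not reported here.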

Additional observations from a re-analysis of the deposited data

Results flagged for a closer look

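The values below lay far from the other 3 libraries of their group (Dixon's ratio above the critical value for 4 samples). They are 31 of 518 groups of 4 checked (5.98%), and chance alone gives about 1 in 20. Levels are in CPM.

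In Control library 1, low values were found for Akr1c12 (52.4 against 67.8 to 70.8), Akr1c6 (381.6 against 665 to 698.7), Hadh (228.9 against 250.2 to 252.1), Mup3 (6331 against 7938 to 8020), Sc5d (193.4 against 222.3 to 227.6), Sult2a8 (374.4 against 611.1 to 628.1) and summed macrophage markers (108.9 against 175 to 187.2). High values there were those of C3 (7275 against 4882 to 5284) and Slc30a1 (50.03 against 32.46 to 35.3). Control library 2 was high in Acaa1b (1164 against 821.5 to 849.7), Apoa5 (1351 against 1103 to 1138), G0s2 (456.8 against 145 to 175.4) and Pdk4 (104.1 against 26.71 to 33.27), and low in Per2 (2.687 against 4.616 to 4.926) and Zfp984 (1.527 against 1.875 to 1.918). Control library 3 was high in Orm2 (29.43 against 10.26 to 11.84), in Tat (2740 against 1598 to 1719), in summed B and plasma cell markers (56.14 against 26.03 to 30.86) and in platelet markers (7.025 against 4.236 to 4.351). Control library 4 was low in Got1 (440.7 against 680.9 to 715.8) and high in Cyp2b9 (0.4748 against 0.06108 to 0.1199).

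HFD library 1 was high in Cry1 (13.67 against 6.158 to 7.415) and in the mitochondrially encoded share of counts (10.59% against 8.784% to 8.873%). It was low in Zfp982 (2.439 against 2.604 to 2.61), in sinusoidal endothelial markers (284.3 against 541.3 to 567.1) and in platelet markers (2.295 against 3.861 to 4.122). HFD library 2 was high in Rgs16 (73.93 against 15.34 to 21.79) and HFD library 3 in Cyp2b9 (35.52 against 2.31 to 7.586). HFD library 4 was low in Ass1 (1045 against 1241 to 1269), Hamp (299.4 against 522.9 to 556.4) and Hsd3b3 (122.7 against 158.8 to 162).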

How the results depend on the processing

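The counts of 691 risen and 702 fallen genes stayed within 1.5 times under DESeq2 (892 and 822), limma-voom (702 and 668), all 12 libraries (826 and 895), no filter on low counts (898 and 841) and total counts without TMM (773 and 471). At a threshold of 0.01 they were 289 and 273, with 123 genes at least 2-fold lower. With the replicate number as a block they were 404 and 402; same-numbered libraries did not deviate together, so this is no paired result. Leaving out 1 library in turn gave 472 to 625 risen and 418 to 660 fallen genes, with 157 to 210 at least 2-fold higher and 157 to 212 at least 2-fold lower. Of 239 genes named and tested, 193 passed. Of these, 153 kept their call in each of the 18 alternative fits that tested them, and 40 lost it in at least 1 (26 with the block, 22 without HFD library 4). A further 13 genes passed in at least 1 alternative fit. Among genes with a call in the main or the alternative fit, 0 changed direction. Changes of sign without a call in either fit were not counted. The sums of hepatocyte and adipocyte markers and the share of major urinary protein genes kept their direction under TMM scaling and without each library. For the hepatocyte sum the exact permutation p was 0.0571 under TMM scaling, against 0.0286 on total counts. Leaving out Control library 2 with HFD library 1 was chosen after seeing the data. Depth limits genes such as Cyp2b9, with 13 reads over the Control libraries.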
